A study of Mus musculus with 12 samples.

Results

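Fpr1, Fpr2, C5ar1, C3ar1 and Ptafr encode receptors through which phagocytes sense microbes and damaged tissue, and 5 of 5 were found by symbol among the 16805 genes of the neutrophil count table and the 16954 genes of the monocyte count table. The libraries came from spleen cells of wild-type mice around cryo-thermal therapy (CTT), a local treatment that freezes and heats a tumor. Cells labelled neutrophils had been captured with PE-coupled anti-Ly6G, an antibody against a surface protein of mouse neutrophils, from mice 12 h after CTT (n = 3 libraries) and from tumor-bearing control mice without the therapy (n = 3). Cells labelled monocytes had been captured with PE-coupled anti-CCR2, an antibody against a chemokine receptor of inflammatory monocytes, 5 days after CTT, from mice that had also been given anti-Ly6G (n = 3), an antibody used to deplete neutrophils, and from mice with CTT alone (n = 3). All monocyte groups had thus had CTT. The tumor, the strain, the age and sex of the mice and the number of mice behind a library are not stated in the labels, and p-values therefore reflect only how much the libraries of a group varied.

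All 5 products are G protein-coupled receptors of myeloid cells. The formyl peptide receptors bind peptides that start with formylmethionine, which bacteria and mitochondria make and which leak from damaged cells. C5aR1 and C3aR bind the anaphylatoxins C5a and C3a, fragments cut from complement proteins C5 and C3, and the PAF receptor binds platelet-activating factor, a phospholipid made by activated leukocytes. In neutrophils such receptors steer migration, prime the oxidative burst and release granules, and most signal through Gi proteins, which pertussis toxin blocks.

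Fpr1 (Entrez gene 14293) lies on chromosome 17 of GRCm38 (mm10) from 17876471 to 17883939 on the minus strand, and Fpr2 (14289) on the plus strand from 17887824 to 17893952, so that their start sites face away from each other across 3885 bases. C5ar1 (12273) lies on chromosome 7 from 16246743 to 16259540 on the minus strand, with C5ar2 beginning 2589 bases away as its nearest coding neighbour. C3ar1 (12267) lies on chromosome 6 from 122847140 to 122856157 on the minus strand, and Ptafr (19204) on chromosome 4 from 132564067 to 132582683 on the plus strand. In GENCODE's principal transcripts of Fpr1, Fpr2, C3ar1 and Ptafr 1 exon of 2 carries the coding sequence, and C5ar1 has 2 coding exons.

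The promoters of Fpr1, Fpr2 and C5ar1 are shown because, of the head-to-head pair Fpr1 and Fpr2, only Fpr2 passed the test in monocytes. C5ar1 passed it in both cell types. Each run is the gene's own strand on GRCm38.p6 from RefSeq, 250 bases before the start site and 50 after it, at chr17:17883890-17884189, chr17:17887574-17887873 and chr7:16259289-16259588. Capitals mark matches, on either strand, to 4 motifs: AGGAAGT (ETS factors such as PU.1), TTNCNNAA (C/EBP), TGANTCA (AP-1) and the NF-kB motif, GGG and CC with any 5 bases between them.
Fpr1: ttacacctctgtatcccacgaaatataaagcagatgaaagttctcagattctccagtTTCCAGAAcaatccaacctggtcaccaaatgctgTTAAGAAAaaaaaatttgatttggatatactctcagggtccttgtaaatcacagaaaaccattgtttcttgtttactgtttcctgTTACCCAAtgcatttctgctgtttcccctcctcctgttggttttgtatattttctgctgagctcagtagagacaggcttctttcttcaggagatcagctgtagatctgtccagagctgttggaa
Fpr2: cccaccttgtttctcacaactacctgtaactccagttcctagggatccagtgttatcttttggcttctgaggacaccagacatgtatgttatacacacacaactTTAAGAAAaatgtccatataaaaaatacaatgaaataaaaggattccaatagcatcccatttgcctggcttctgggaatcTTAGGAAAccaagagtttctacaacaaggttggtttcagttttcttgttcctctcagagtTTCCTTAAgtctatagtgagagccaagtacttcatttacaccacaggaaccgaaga
C5ar1: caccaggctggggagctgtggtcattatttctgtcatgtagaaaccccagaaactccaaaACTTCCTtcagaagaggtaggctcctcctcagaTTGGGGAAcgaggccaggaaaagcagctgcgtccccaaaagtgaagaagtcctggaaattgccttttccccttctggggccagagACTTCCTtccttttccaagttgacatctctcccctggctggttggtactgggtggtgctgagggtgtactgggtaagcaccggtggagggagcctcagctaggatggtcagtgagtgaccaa
Fpr1 and Fpr2 each held 3 C/EBP matches, and C5ar1 held 2 ETS matches and 1 C/EBP match, with no match overlapping another. Of 32851 promoter windows of the same length, 40.7% held the C/EBP letters and 9.35% the ETS letters. C3ar1 held 1 NF-kB match and 1 AP-1 match, letters found in 50.8% and 7.81% of windows, and Ptafr held none of the 4. A match describes the letters and is not a binding site.

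The libraries held 30942849 to 34935547 counted reads in neutrophils and 31865982 to 35956571 in monocytes. Markers of several spleen cell types were present in each group, and none of the genes in the 11 marker lists was at 0 throughout a group. Ly6g stood at 19.2 ± 6.42 CPM (read counts scaled to a common library size by TMM, SD, n = 3) in CTT neutrophils and 11.8 ± 2.66 CPM in control neutrophils, and at 56.1 ± 7.19 CPM in monocytes with anti-Ly6G and 13.6 ± 2.26 CPM in monocytes with CTT alone, so that the labelled neutrophils were not set apart by it. B cell markers summed to 6465 to 6926 CPM in CTT neutrophils and 3104 to 7708 CPM in control neutrophils. Control replicate 1 of the neutrophils stood apart, with a median Pearson r across genes of 0.941 with the other neutrophil libraries, where those had 0.984 to 0.989. Its erythroid markers summed to 7929 CPM, against 156 to 1264 CPM in the other neutrophil libraries.

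Per transcript length, in the authors' FPKM (counts divided by gene length and sequencing depth), C3ar1 was the lowest of the 5 receptors in each group and Ptafr the next lowest. In CTT neutrophils C5ar1 stood at 44.8 ± 3.39 FPKM, Fpr1 at 41.5 ± 11.1, Fpr2 at 38.4 ± 9.92, Ptafr at 18.9 ± 7.56 and C3ar1 at 0.832 ± 0.303 FPKM (SD, n = 3 in every group). In control neutrophils the FPKM order was Fpr1 (20.3 ± 2.32), C5ar1 (18.1 ± 2.05), Fpr2 (16.2 ± 4.60), Ptafr (7.70 ± 1.12) and C3ar1 (0.456 ± 0.159). The leading 3 overlapped with their neighbours in that order in both neutrophil groups, while Ptafr and C3ar1 did not overlap with the gene above them.

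In monocytes with CTT and anti-Ly6G, Fpr2 stood first at 61.6 ± 4.34 FPKM, then Fpr1 at 52.9 ± 5.37, C5ar1 at 33.4 ± 6.30, Ptafr at 16.2 ± 4.50 and C3ar1 at 1.01 ± 0.251 FPKM. With CTT alone the FPKM order was Fpr1 (45.1 ± 7.84), Fpr2 (26.1 ± 4.51), C5ar1 (18.4 ± 0.980), Ptafr (13.01 ± 1.10) and C3ar1 (1.38 ± 0.503). Fpr2 and Fpr1 overlapped with anti-Ly6G, and no neighbours overlapped with CTT alone. The summed FPKM of the 5 receptors was 144 ± 31.2 in CTT neutrophils and 62.8 ± 7.96 in control neutrophils, and 165 ± 18.7 in monocytes with anti-Ly6G and 104 ± 11.2 with CTT alone. Fpr1 made up 28.5 ± 1.61% of that sum in CTT neutrophils and 32.5 ± 2.37% in controls, and 32.1 ± 1.54% in monocytes with anti-Ly6G and 43.2 ± 2.73% with CTT alone. The neutrophil and monocyte tables were normalized separately and were not tested against each other.

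**Figure D1:**
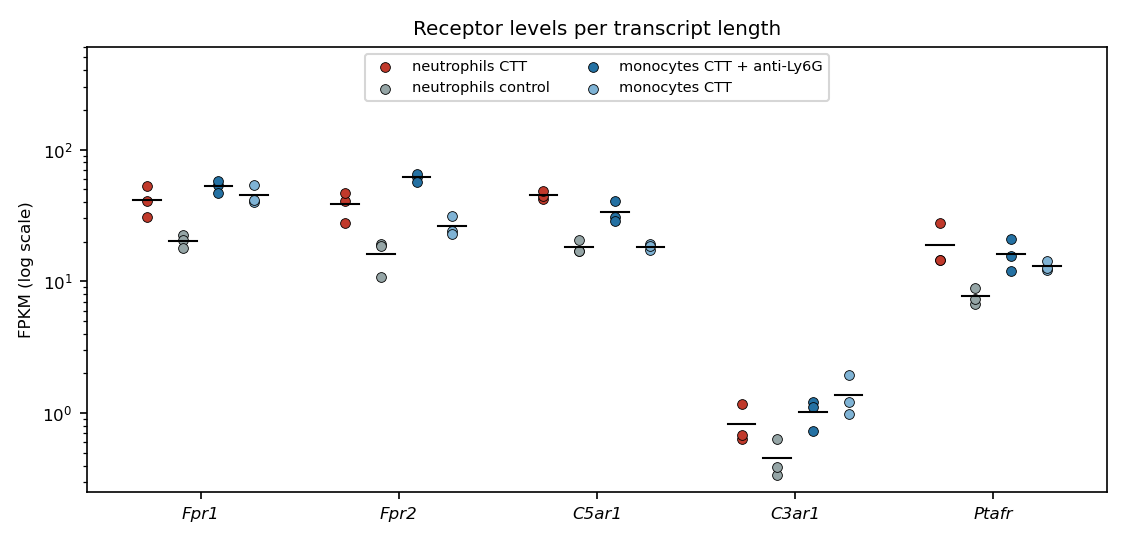
Deposited FPKM of each receptor (log axis) in the 4 groups, with 1 point per library and a line at the mean of 3. Fpr1, Fpr2 and C5ar1 lie above Ptafr, and C3ar1 is the lowest in each group.

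In Ly6G-selected cells 12 h after CTT, all 5 receptors stood higher in each CTT library than in any control library, and C5ar1 passed the test over all genes. C5ar1 rose 2.58-fold and the other 4 stood 1.91-fold (C3ar1) to 2.57-fold (Ptafr) above controls without passing. Each of 13058 genes was tested in edgeR's quasi-likelihood fit, with two-sided p-values adjusted by Benjamini and Hochberg's method. It called 1 of the 5 members higher, where 0.567% of all genes tested rose. Groups that did not overlap, with CTT higher, were seen in 5 members and in 13.6% of tested genes (11% with CTT lower). The members' median log2 fold change was 1.31, beside -0.02 over all genes tested.

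Fpr1, the high-affinity receptor for formyl peptides, read 40.7, 54.5 and 73.9 CPM in the CTT neutrophil libraries, against 29.7, 26.3 and 23.2 CPM in the control libraries. The lowest CTT library was above the highest control, and the CTT libraries spread more widely than the controls. On the log2 scale the difference was 1.09 (SE 0.23, edgeR adjusted p = 0.127). Fpr2, which also answers to lipid and protein ligands such as annexin A1 and serum amyloid A, read 35.6, 53.1 and 64.3 CPM after CTT, against 24.7, 23.2 and 13.7 CPM in controls. Its groups did not overlap either, with control replicate 3 the lowest library. For Fpr2 the log2 difference was 1.31 (SE 0.30, adjusted p = 0.144). Without control replicate 1, Fpr1 (1.19, adjusted p = 0.0458) and Fpr2 (1.47, adjusted p = 0.0478) both passed, in a fit where 1.93% of 13295 genes rose.

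C5ar1, the receptor through which C5a draws and activates neutrophils, read 107, 115 and 131 CPM in the CTT libraries, against 43.3, 51.0 and 42.6 CPM in the controls. Both groups were tight, and every CTT library was more than 100 CPM. The log2 fold change was 1.37 (SE 0.14, adjusted p = 0.0173). The call held without control replicate 1 (adjusted p = 0.00345) and was lost without any other library, with adjusted p-values of 0.0668 and 0.0772 without control replicate 2 or 3 and 0.0707, 0.135 and 0.109 without CTT replicate 1, 2 or 3. It was also lost in limma-trend on unfiltered FPKM (adjusted p = 0.0508).

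C3ar1, the receptor for C3a, was covered by 91 to 172 reads per CTT library and 51 to 93 per control library. It read 2.71, 2.97 and 5.34 CPM after CTT, against 1.45, 1.63 and 2.67 CPM in controls, with replicate 3 the highest library of both groups. The lowest CTT library lay just above the highest control, and the log2 fold change of 0.94 (SE 0.39) did not pass (adjusted p = 0.351). Ptafr, the PAF receptor, read 52.6, 53.6 and 105.7 CPM after CTT, against 24.5, 31.5 and 26.3 CPM in controls. CTT replicate 3 stood far above the other libraries, and the groups did not overlap. The Ptafr difference was 1.36 in log2 units (SE 0.30, adjusted p = 0.128), and 0.96 without CTT replicate 3 (adjusted p = 0.226).

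**Figure D2:**
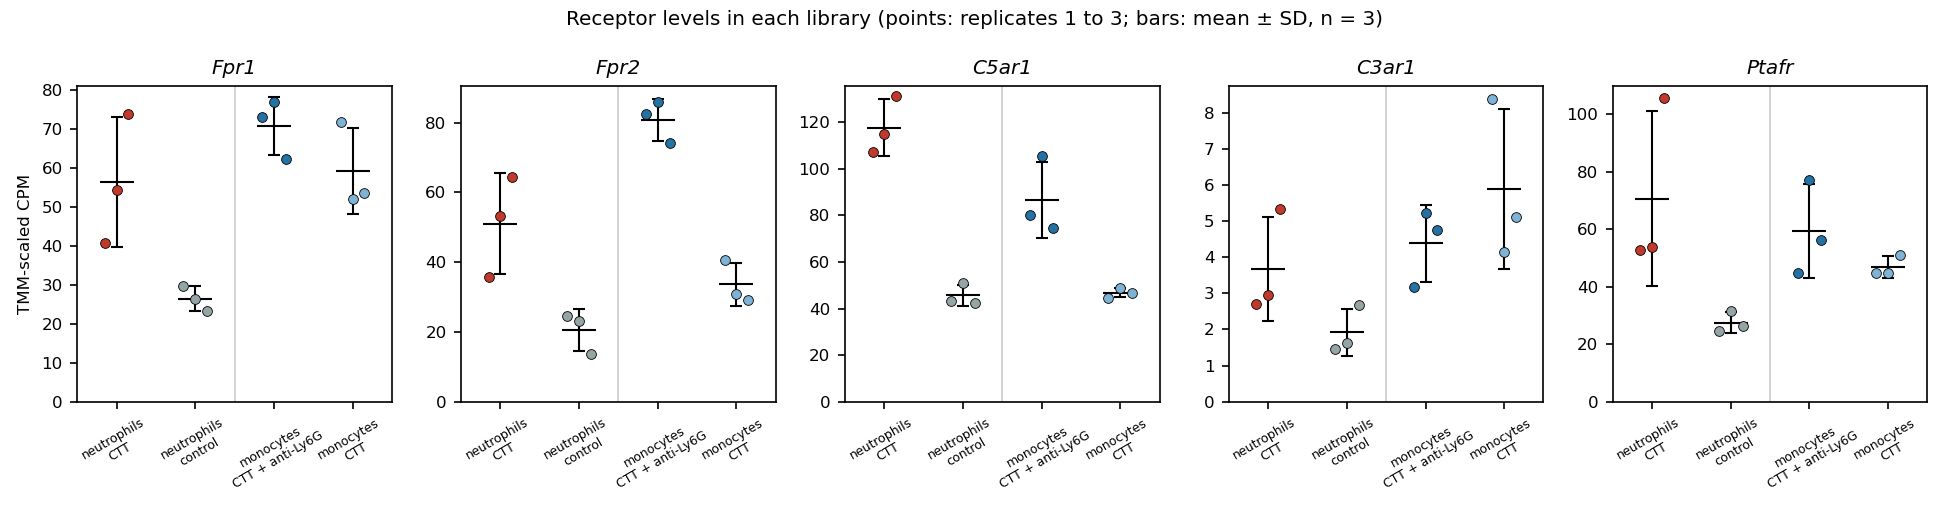
TMM-scaled CPM of each receptor in every library, with the mean and SD of 3 per group and a separate axis per gene, starting at 0. The CTT points lie above the control points for all 5 genes in neutrophils, while in monocytes the groups separate for Fpr2 and C5ar1.

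Of 12 neutrophil markers 2 rose and 10 did not pass, where 0.567% of all tested genes rose. Their summed level was 7712 to 12821 CPM in CTT neutrophils and 4124 to 6091 CPM in controls. In such bulk samples, fewer cells of a type and less RNA per cell cannot be told apart. Relative to the summed neutrophil markers of the same library, C5ar1 was 0.42 higher on the log2 scale after CTT, Fpr2 0.37, Ptafr 0.35 and Fpr1 0.11, while C3ar1 differed by -0.02. The exact permutation p-values (two-sided, n = 3 against 3) were 0.2, 0.3, 0.1, 0.7 and 0.9 for these 5 ratios, where 0.1 is the smallest p that the design allows. Adjusted over the 10 ratios of both cell types they were 0.167 or more, and only the Ptafr ratio was higher in 3 of 3 CTT libraries than in any control. Inflammatory monocyte markers summed to 1768 to 2909 CPM after CTT and 1664 to 1978 CPM in controls (1 of 8 rose), and red pulp macrophage markers to 2277 to 3104 CPM after CTT and 2630 to 2940 CPM in controls (0 of 10 rose, 0 fell). Nonclassical monocyte markers summed to 2093 to 3800 CPM after CTT and 1214 to 1723 CPM in controls (0 of 6 rose), while their median log2 fold change was -0.28. Among them Cx3cr1 read 34.7 ± 11.4 CPM after CTT and 54.7 ± 5.08 CPM in controls (-0.66, edgeR adjusted p = 0.347). Sum and median thus differed in direction, and the markers do not show whether such cells were more or fewer. The part of the cells named here in the receptor levels was not tested.

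In CCR2-selected cells 5 days after CTT, Fpr2 and C5ar1 rose with anti-Ly6G, 2.41-fold and 1.86-fold, while Fpr1, Ptafr and C3ar1 did not pass the test. Fpr1 stood 1.20-fold and Ptafr 1.27-fold above the level with CTT alone, and C3ar1 at 0.747-fold. Of the 5 members 2 rose and 0 fell, where 10.2% of 13294 tested genes rose and 5.12% fell. Under upper quartile scaling 1069 genes rose and 1030 fell, beside 1354 and 681 with TMM. Groups that did not overlap, with anti-Ly6G higher, were seen in 2 members and in 20.6% of tested genes, and with anti-Ly6G lower in 0 members and 15.4% of genes. The members' median log2 fold change was 0.34, beside 0.00 over all genes tested.

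Fpr2 read 82.4, 85.8 and 74.0 CPM in the anti-Ly6G libraries, against 40.7, 30.8 and 29.2 CPM in those with CTT alone. The groups lay far apart, a log2 difference of 1.27 (SE 0.12, adjusted p = 0.000469). Fpr1, its neighbour on chromosome 17, read 73.0, 76.9 and 62.4 CPM with anti-Ly6G, against 71.9, 52.1 and 53.5 CPM with CTT alone. CTT replicate 1 reached into the range of the anti-Ly6G libraries, and the log2 fold change was 0.26 (SE 0.13, adjusted p = 0.215). Without CTT replicate 1 it was 0.42 and passed (adjusted p = 0.00917), in a fit where 1687 of 13525 tested genes rose.

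C5ar1 read 80.3, 105 and 74.4 CPM with anti-Ly6G, against 44.7, 48.6 and 46.8 CPM with CTT alone. The libraries with CTT alone were within a few CPM of each other, and replicate 2 led the anti-Ly6G libraries. Its log2 fold change was 0.89 (SE 0.12, adjusted p = 0.00211). C3ar1 read 3.19, 5.23 and 4.76 CPM with anti-Ly6G, against 8.40, 4.16 and 5.11 CPM with CTT alone, from 105 to 269 reads per library. The groups overlapped, and the log2 difference of -0.42 (SE 0.29, adjusted p = 0.369) was -0.08 without CTT replicate 1. Ptafr read 44.7, 77.1 and 56.3 CPM with anti-Ly6G, against 44.7, 44.7 and 51.1 CPM with CTT alone. Replicate 1 with anti-Ly6G lay at the level of CTT alone, and the log2 fold change was 0.34 (SE 0.17, adjusted p = 0.211), or 0.11 without anti-Ly6G replicate 2.

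Neutrophil markers were far higher in the anti-Ly6G libraries. Of 12 neutrophil markers 11 rose and 0 fell, with a summed level of 13355 to 18057 CPM with anti-Ly6G and 4817 to 6646 CPM with CTT alone. Relative to this sum each receptor was lower with anti-Ly6G, by -0.28 for Fpr2, -0.68 for C5ar1, -1.25 for Ptafr, -1.29 for Fpr1 and -1.95 for C3ar1 on the log2 scale. Each of the 5 ratios was lower in 3 of 3 anti-Ly6G libraries than in any library with CTT alone (exact permutation test, two-sided, p = 0.1 each, the smallest that 3 against 3 allow, adjusted p = 0.167 over 10 ratios). The 5 ratios share the marker sum, which rose more than any of the receptors, so they are not 5 separate results. Of 8 inflammatory monocyte markers 6 rose and 1 fell, with sums of 4692 to 5657 CPM with anti-Ly6G and 3355 to 5409 CPM with CTT alone. Of 10 red pulp macrophage markers 8 fell, with sums of 6222 to 6956 CPM with anti-Ly6G and 8374 to 14033 CPM with CTT alone. Eosinophil markers summed to 203 to 226 CPM with anti-Ly6G and 286 to 465 CPM with CTT alone (1 of 4 fell). Erythroid markers summed to 412 to 687 CPM with anti-Ly6G and 716 to 1157 CPM with CTT alone (2 of 8 fell), and B cell markers to 2807 to 3876 CPM with anti-Ly6G and 3627 to 5299 CPM with CTT alone (1 of 8 fell). The macrophage, eosinophil and erythroid sums did not overlap between the groups, and the part of these cells in the receptor levels was not tested.

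**Figure D3:**
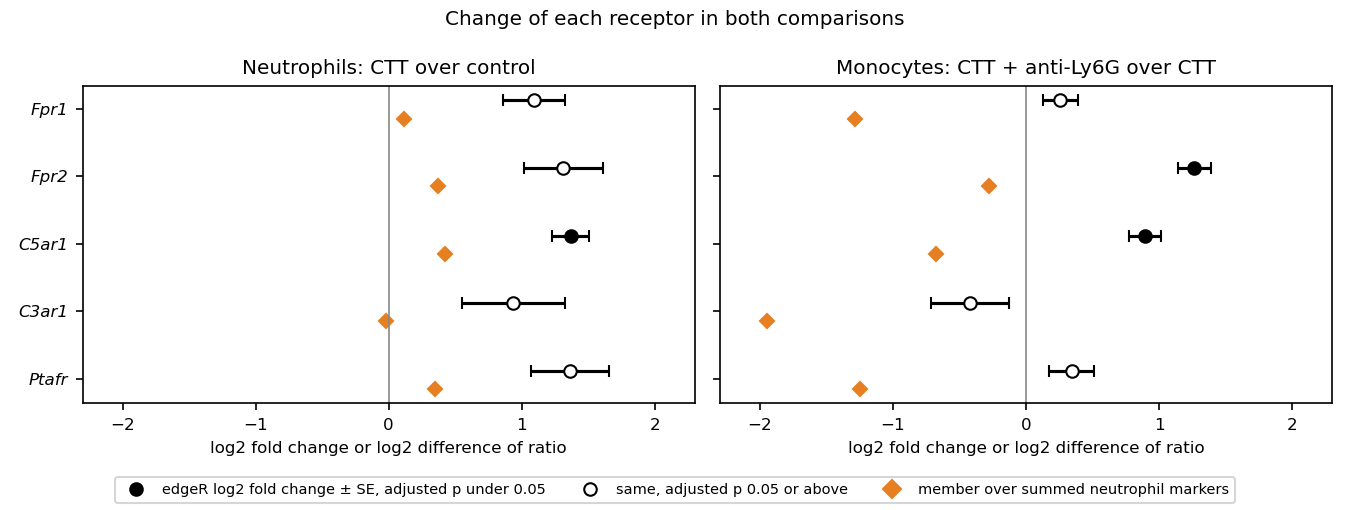
Log2 fold changes from edgeR (circles, ± SE, filled where the adjusted p was under 0.05) and log2 differences of each receptor's ratio to the summed neutrophil markers (diamonds), with n = 3 against 3. In neutrophils the circles lie between 0.94 and 1.37 and the diamonds between -0.02 and 0.42. In monocytes the circles of Fpr2 and C5ar1 lie at 1.27 and 0.89, and all diamonds lie below 0.

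The balance between the formyl peptide receptors did not overlap between the monocyte groups, though the test used for it cannot pass with 3 against 3 libraries. The Fpr2 to Fpr1 ratio of FPKM, taken within a library, was 1.15, 1.14 and 1.21 with anti-Ly6G, against 0.578, 0.604 and 0.557 with CTT alone. Fpr2 thus stood above Fpr1 in 3 of 3 anti-Ly6G libraries and in 0 of 3 libraries with CTT alone, and the ratio was 2.01-fold higher with anti-Ly6G. In neutrophils the ratio was 0.894, 0.996 and 0.888 after CTT, against 0.847, 0.901 and 0.605 in controls, and the groups overlapped. The exact permutation test (two-sided, 3 against 3) gave p = 0.1 in monocytes and p = 0.3 in neutrophils, or 0.15 and 0.3 adjusted over 6 ratios of receptor pairs chosen after the values were seen.

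The ratio of C5ar1 to C3ar1 FPKM was 42.1, 33.7 and 26.2 in monocytes with anti-Ly6G, against 8.90, 19.6 and 15.3 with CTT alone, and these groups did not overlap. In neutrophils it was 66.1, 64.7 and 41.1 after CTT, against 49.9, 52.4 and 26.6 in controls, with overlap. C5ar2, the other C5a receptor, does not couple to G proteins. The ratio of C5ar1 to C5ar2 FPKM was 31.9 ± 3.56 in CTT neutrophils and 16.5 ± 0.988 in controls, and 11.2 ± 1.22 in monocytes with anti-Ly6G and 6.71 ± 0.247 with CTT alone (SD, n = 3). It was higher in every library of CTT neutrophils than in any control, and higher in every anti-Ly6G monocyte library than in any with CTT alone (exact permutation p = 0.1 for both, adjusted p = 0.15 over the 6 ratios).

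**Figure D4:**
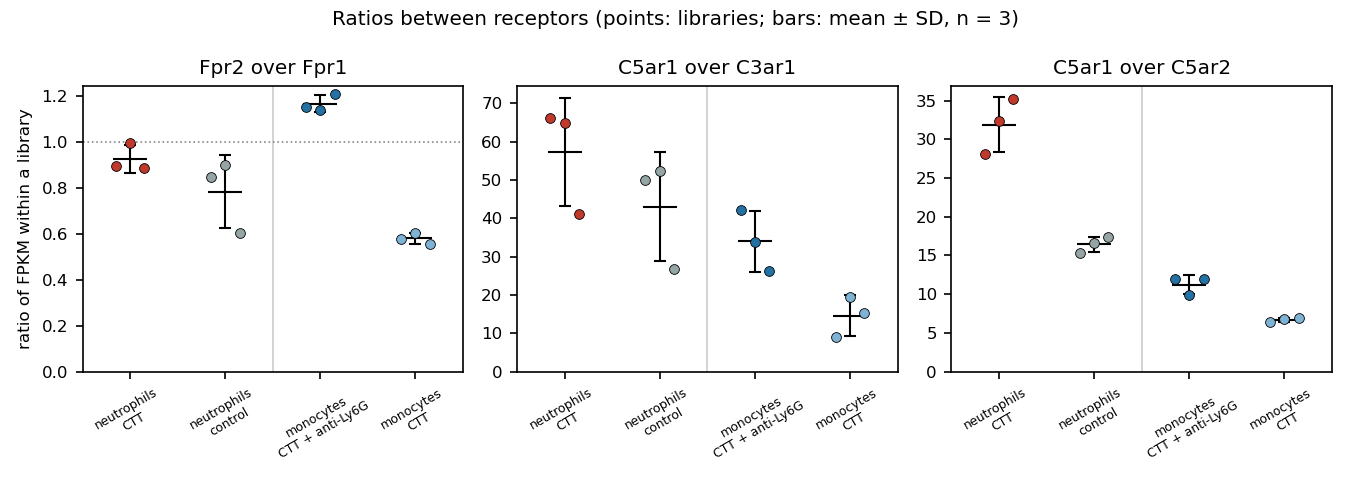
Ratios of FPKM between receptors within each library, with the mean and SD of 3 per group and axes from 0 (dotted line: equal FPKM). The Fpr2 to Fpr1 ratio lies above 1 in the 3 anti-Ly6G monocyte libraries and below 1 in the other libraries.

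Among relatives of these receptors, edgeR called 0 of 3 tested genes in neutrophils and 0 of 4 in monocytes, with 1 in each at an unadjusted p under 0.05. DESeq2 called 1 higher in neutrophils, where 441 of 16805 genes were called higher, and 0 in monocytes. The limma-voom count was 0 in both. Without CTT replicate 2 of the monocytes, edgeR called 1 lower there, where 531 of 13540 tested genes fell. C5ar2 read 7.48 ± 0.268 CPM in CTT neutrophils and 5.62 ± 0.613 CPM in controls (0.41 on the log2 scale, SE 0.18, adjusted p = 0.364), and 15.97 ± 4.99 CPM in monocytes with anti-Ly6G and 14.1 ± 0.297 CPM with CTT alone (0.18, SE 0.19, adjusted p = 0.57). Cmklr1, the receptor for the attractant chemerin, read 24.4 ± 0.724 and 16.7 ± 1.85 CPM in CTT and control neutrophils (0.55, SE 0.14, adjusted p = 0.2), and 29.7 ± 1.49 and 38.7 ± 8.56 CPM in monocytes with and without anti-Ly6G (-0.38, SE 0.14, adjusted p = 0.103). Gpr33 stayed below 1 CPM in each group. Fpr3 had 1, 0 and 0 reads in CTT neutrophils and 0, 19 and 0 in controls, and 90, 18 and 0 reads in monocytes with anti-Ly6G and 2, 1 and 19 with CTT alone, so that 1 library carried most of the reads in each group.

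Fpr2 is the member whose reads could most readily be confused with those of other genes. Of its 50-base windows in GENCODE transcripts 31.5% also occur in Fpr1, Fpr3 or the pseudogene Gm5966. Of its 100-base windows 12.3% occur in Gm5966, as do 1.27% of its 150-base windows. GENCODE also lists an Fpr3 transcript that starts inside the first exon of Fpr2 on the same strand. The FPKM values imply a length of 1220 bases for Fpr3, which equals its RefSeq locus on chromosome 17 from 17970458 to 17971677, apart from Fpr2. Fpr1 shared 0.0784% of its 50-base windows, Ptafr 1.64% and C5ar1 and C3ar1 0%, and these 4 shared none of 100 bases. How reads with several matches were counted is not stated in the labels, so Fpr2 is uncertain to that extent.

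Among 8 genes of ligands and ligand precursors in the tables, 1 of 5 tested rose in neutrophils and 5 of 6 in monocytes, with 0 falling in either. Of all tested genes 0.567% rose in neutrophils and 10.2% in monocytes. Saa3, an acute phase protein of the serum amyloid A family, rose to 10.3 ± 2.91 CPM in CTT neutrophils, against 1.44 ± 0.424 CPM in controls (log2 fold change 2.84, SE 0.33, adjusted p = 0.0296). It rose to 23.1 ± 1.55 CPM in monocytes with anti-Ly6G, against 2.64 ± 1.10 CPM with CTT alone (3.13, SE 0.24, adjusted p = 0.000169). Anxa1, which encodes annexin A1, a protein ligand of FPR2, read 257 ± 72.6 CPM in CTT neutrophils and 147 ± 32.8 CPM in controls (0.81, SE 0.24, adjusted p = 0.263). The Saa3 call in neutrophils was lost in limma-trend on unfiltered FPKM and in edgeR without any 1 library other than control replicate 1. In monocytes Anxa1 rose to 512 ± 64.9 CPM with anti-Ly6G, against 180 ± 36.8 CPM with CTT alone (1.51, SE 0.14, adjusted p = 0.000438). C3, the precursor of C3a, rose there to 574 ± 69.1 CPM with anti-Ly6G, against 269 ± 51.9 CPM with CTT alone (1.10, SE 0.14, adjusted p = 0.00138). Camp, the cathelicidin precursor, and C4b, complement C4, also rose, by 1.24 and 1.08. Camp is also among the 12 neutrophil markers, of which 11 rose with anti-Ly6G, so its rise is no separate result. Without CTT replicate 3 of the monocytes, 3 of the 6 ligand genes rose, where 706 of 13515 tested genes rose. Hc, the mouse gene for C5, stayed below 1 CPM in each group.

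Complement genes moved in both directions in monocytes. Of 17 tested genes of complement activation and regulation, 4 rose and 4 fell, with a median log2 fold change of -0.42. In the same fit 10.2% of all tested genes rose and 5.12% fell. The number of complement genes that fell was 1 without any 1 anti-Ly6G library, 2 without CTT replicate 3 and 8 without CTT replicate 1. It was also 1 in limma-trend on unfiltered FPKM. The fits without 1 anti-Ly6G library called 177 to 318 of 13500 to 13523 tested genes lower. The fit without CTT replicate 3 called 278 of 13515 lower, and that without CTT replicate 1 called 1168 of 13525 lower. Cpd, a carboxypeptidase, rose by 1.02 (SE 0.08, adjusted p = 0.0002), and Cfb, factor B of the alternative pathway, by 0.90. Cd93 rose by 0.85. C2 fell by 0.75, C1qa and C1qc, chains of the C1q recognition protein that macrophages make, by 0.77 and 0.73, and Cfp, properdin, by 0.54 on the log2 scale. In neutrophils edgeR and limma-voom called 0 of 16 of these genes, with a median of 0.05 and 1 in edgeR at an unadjusted p under 0.05. DESeq2 called 1 higher, where 441 of 16805 genes were called higher. Without control replicate 1 the count was 1 higher and 1 lower of 17, where 1.93% of all tested genes rose and 0.233% fell. The integrin subunit gene Itgam, a part of complement receptor CR3, read 373 ± 90.7 CPM in CTT neutrophils and 226 ± 27.2 CPM in controls (0.72, SE 0.20, adjusted p = 0.22). Itgam rose in monocytes to 655 ± 66.2 CPM with anti-Ly6G, against 325 ± 42.5 CPM with CTT alone (1.01, SE 0.11, adjusted p = 0.000636), as did its partner Itgb2 (0.46).

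The genes of PAF synthesis and breakdown gave 0 calls of 8 in either cell type in edgeR and limma-voom, with medians of -0.06 and -0.04. At an unadjusted p under 0.05 there were 1 in neutrophils and 2 in monocytes, and DESeq2 called 1 higher in neutrophils and 1 lower in monocytes. Over all genes the unadjusted counts were 1830 of 13058 and 4118 of 13294. DESeq2 called 441 of 16805 genes higher in neutrophils and 1185 of 16954 lower in monocytes. Pla2g7, the secreted enzyme that breaks PAF down, read 209 ± 34.4 CPM in CTT neutrophils and 116 ± 12.0 CPM in controls (log2 fold change 0.85, SE 0.16, adjusted p = 0.0837). Without control replicate 1, 1 of the 8 rose in neutrophils, and without CTT replicate 1 of the monocytes 1 rose and 1 fell there. In those fits 257 of 13295 and 1687 of 13525 tested genes rose, and 1168 fell in the latter. Lpcat1, an enzyme that can make PAF, read 120 ± 7.96 and 147 ± 26.4 CPM in CTT and control neutrophils (-0.30, SE 0.15, adjusted p = 0.397).

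Signalling genes downstream of the receptors were called higher in monocytes and not in neutrophils, a difference that was not tested. Over all tested genes 10.2% rose and 5.12% fell in monocytes, and 0.567% rose in neutrophils. Whether both fits were equally able to call changes in these signalling genes was not tested. Of 20 G protein and second messenger genes 7 rose with anti-Ly6G and 0 fell, with a median log2 fold change of 0.14. Without CTT replicate 3 of the monocytes 3 rose, and without CTT replicate 1 there were 7 that rose and 3 that fell. Of all tested genes 706 of 13515 rose in the former fit, and 1687 of 13525 rose and 1168 fell in the latter. Pik3r6 and Pik3r5, which tie PI3K gamma to G proteins, rose by 1.01 (SE 0.12, adjusted p = 0.0013) and 0.39 (SE 0.06, adjusted p = 0.00303), and Gnai2, the main Gi subunit of leukocytes, by 0.30 (SE 0.06, adjusted p = 0.00787). Of 18 migration and kinase genes 5 rose, beside 10.2% of all tested genes, and the median log2 fold change of the list was 0.07. The smallest p was that of Mapk3, which encodes ERK1 (0.62, SE 0.11, adjusted p = 0.00635). Fgr, a Src family kinase, rose by 0.35. The count of 5 was 1 without anti-Ly6G replicate 1 or 2 or CTT replicate 2 or 3, 2 without anti-Ly6G replicate 3 and 7 without CTT replicate 1. It was 2 under upper quartile scaling and 3 with library totals or in limma-trend on unfiltered FPKM. The fits that gave a count of 1 called 706 to 875 of 13500 to 13540 tested genes higher. In neutrophils edgeR called 0 of 20 and 0 of 18 genes of these lists, also without control replicate 1, with 3 and 2 at an unadjusted p under 0.05. limma-voom called 0 of both and DESeq2 0 and 1, where DESeq2 called 441 of 16805 genes higher. The median log2 fold changes of the 2 lists in neutrophils were 0.09 and 0.13. There Fgr differed by 0.61, Pik3r5 by 0.37, Mapk3 by 0.15, Gnai2 by 0.11 and Pik3r6 by 0.06, without passing.

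Of 12 genes that desensitize such receptors, 4 rose and 1 fell in monocytes, where 10.2% of all tested genes rose and 5.12% fell. There were 2 that rose without anti-Ly6G replicate 1 or 3 or CTT replicate 3, where 706 to 929 of 13515 to 13523 tested genes rose. The number that fell was 0 without anti-Ly6G replicate 2 or 3 or CTT replicate 3 and in limma-trend on unfiltered FPKM. It was 2 without CTT replicate 2, where 531 of 13540 tested genes fell. Grk5, a receptor kinase, rose by 0.61 (SE 0.07, adjusted p = 0.00108), and Rgs18 and Rgs19, which speed the switching off of G proteins, by 0.49 and 0.28. Rgs1, another of these regulators, fell by 0.41 (SE 0.09, adjusted p = 0.0221) to 114 ± 7.88 CPM with anti-Ly6G, against 152 ± 18.04 CPM with CTT alone. In neutrophils edgeR and limma-voom called 0 of 12, with 5 in edgeR at an unadjusted p under 0.05, and DESeq2 called 2 higher. Over all genes these were 1830 of 13058 at an unadjusted p under 0.05 and 441 of 16805 called higher by DESeq2. Rgs1 read 652 ± 107 CPM after CTT and 285 ± 68.2 CPM in controls (1.19, SE 0.21, adjusted p = 0.0823). Without control replicate 1, 2 of the 12 rose, where 1.93% of all tested genes rose.

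A list of other chemoattractant receptors, which also holds Hcar2 and prostaglandin receptors, gave 2 calls of 21 in neutrophils, both higher. In monocytes it gave 11 of 21, 10 higher and 1 lower. These are counts of the whole list and not of chemoattractant receptors alone. Of all tested genes 0.567% rose in neutrophils, and 10.2% rose and 5.12% fell in monocytes. In neutrophils 16 of 21 had an unadjusted p under 0.05 in edgeR, and DESeq2 called 11 of 22 higher. Over all genes these were 1830 of 13058 and 441 of 16805. The count of 2 was 0 in limma-trend on unfiltered FPKM and in edgeR without any 1 library other than control replicate 1. It was 1 under upper quartile scaling. Ccr1, a receptor for inflammatory CC chemokines, rose to 222 ± 9.23 CPM in CTT neutrophils, against 78.2 ± 18.1 CPM in controls (log2 fold change 1.505, SE 0.18, adjusted p = 0.0296). Hcar2, the niacin and hydroxybutyrate receptor, rose by 1.40 in neutrophils (SE 0.20, adjusted p = 0.0446) and fell by 0.65 in monocytes (SE 0.15, adjusted p = 0.022). Ltb4r1, the leukotriene B4 receptor, rose by 1.57 in monocytes to 64.1 ± 9.88 CPM with anti-Ly6G, against 21.6 ± 5.58 CPM with CTT alone (SE 0.18, adjusted p = 0.000965), and Cxcr2, the receptor for neutrophil-attracting CXC chemokines, by 1.05 (SE 0.12, adjusted p = 0.000968). Cx3cr1, the fractalkine receptor, rose there by 0.61 (SE 0.07, adjusted p = 0.000905). Cxcr2 is also among the 12 neutrophil markers, of which 11 rose in monocytes with anti-Ly6G, so its rise is no separate result. Without control replicate 1, 6 of 22 rose and 1 fell in neutrophils, where 1.93% of all tested genes rose and 0.233% fell. In monocytes the 1 that fell was lost without anti-Ly6G replicate 1 or 3 or CTT replicate 3 and in limma-trend on unfiltered FPKM. The median of this list was 0.81 in neutrophils and 0.47 in monocytes, beside -0.02 and 0.00 over all genes tested.

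The genes whose pattern was most like that of each receptor were found by Pearson's r of log2(CPM + 1) over the 12 libraries, centred within each table, among 8739 other genes (8740 for C3ar1) that averaged 10 CPM or more in both tables. These 12 points share treatment groups and library composition, and r is a description. C5ar1 was most like Hdc, which encodes the histamine-forming enzyme (r = 0.994), Mxd1 (0.988) and Trem1, an amplifier of inflammatory signals (0.985). Hdc, Mxd1 and Trem1 rose in both comparisons, by 1.42, 1.18 and 1.86 in neutrophils and 0.99, 0.74 and 0.83 in monocytes (adjusted p-values of 0.0167 to 0.0296 and 0.0011 to 0.00288). They were picked for likeness to C5ar1 over these same libraries, so that their rise follows from the choice and is no separate result. Without any 1 library other than control replicate 1, edgeR called 0 genes in neutrophils.

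Fpr2 was most like Tgfbi (r = 0.975), Ms4a4a (0.971) and Retnlg, whose product resembles resistin (0.969). Fpr1 was most like Msr1, a scavenger receptor (0.964), Lrrc25 (0.960) and Sesn2 (0.960). The r of Fpr1 with Fpr2 was 0.862, which placed Fpr2 at rank 84 among the genes most like Fpr1. Ptafr was most like Il1rn, the interleukin-1 receptor antagonist (0.966), Cass4 (0.955) and Plek, pleckstrin (0.953), and C3ar1 was most like Gpr65, a proton-sensing receptor (0.903), Reep3 (0.894) and Gsap (0.890). The r of C3ar1 was 0.667 with Ptafr, 0.631 with Fpr1, 0.362 with C5ar1 and 0.260 with Fpr2.

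**Figure D5:**
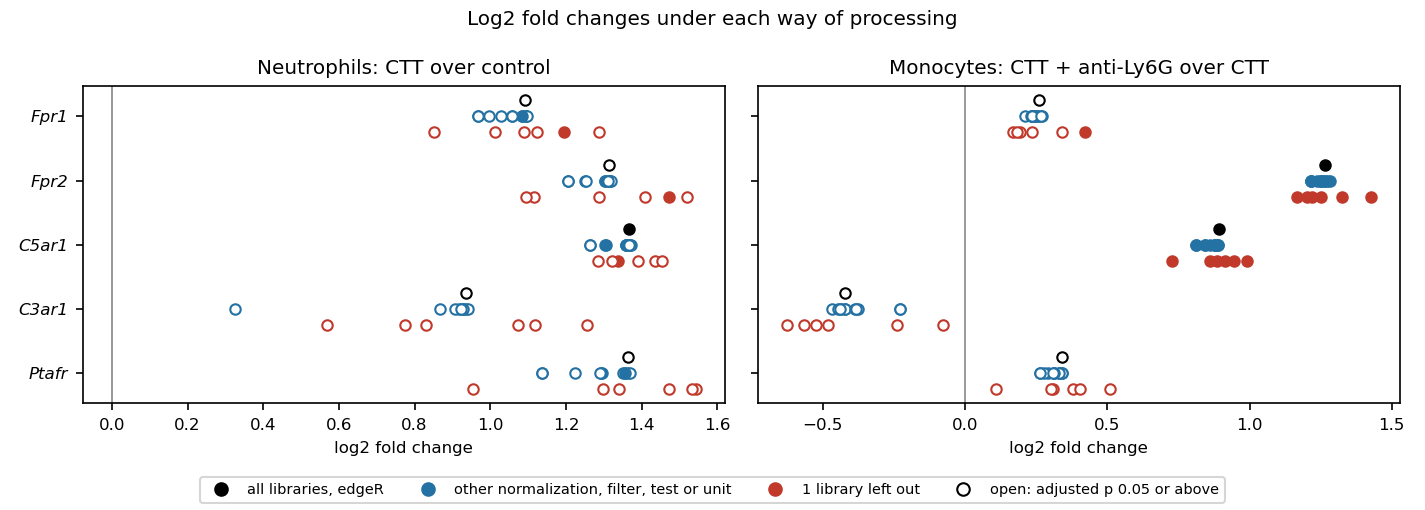
Log2 fold changes of each receptor with all libraries in edgeR (black), under other normalizations, filters, tests or units (blue) and with 1 library left out (red), filled where the adjusted p was under 0.05. Fpr2 and C5ar1 are filled throughout in monocytes, while in neutrophils all points lie above 0 and the red points are filled only for Fpr1, Fpr2 and C5ar1, without control replicate 1.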

How the data were processed

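RNA from 12 libraries in 4 groups of 3 was analysed, and the titles gave the groups and replicate numbers. Per cell type, the authors deposited a table of raw read counts and a table of FPKM values, which equal the count over gene length and library total. HISAT2, HTSeq and mm10 are named in the submitters' processing notes, with no version, annotation or strand setting in the labels. All value columns matched a sample (0 left out).

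Counts were filtered with filterByExpr, scaled by TMM and tested in edgeR 4.0.16 (quasi-likelihood, two-sided, Benjamini-Hochberg over all tested genes, threshold 0.05), each table alone. SEs are the absolute log2 fold change over the square root of F. Ratios were tested by exact permutation. No libraries matched within counting error (chi-square per degree of freedom of at least 12.6). The fits were tested on simulated data. Among the members, counting error is small except for C3ar1. Fpr3, Gpr33 and Hc also had few reads, as did Saa3 in control neutrophils and in monocytes with CTT alone.

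Members and lists were chosen with earlier results of these data known. Named genes are the 5 members, the 3 of smallest p in each of 9 pathway lists (some not printed, 1 gene not reported here), receptor relatives and the 3 genes of most similar pattern; further list genes (Camp, C4b, Cd93, C2, C1qa, C1qc, Cfp, Gnai2, Rgs1 and Hcar2 in monocytes) and Hc were added after their values were seen. Alternatives were other normalizations, filters, DESeq2 1.42.0, limma 3.58.1, a replicate block and leaving out each library.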

Additional observations from a re-analysis of the deposited data

How the results depend on the processing

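The direction of each receptor's log2 fold change was the same under every alternative that gave a value. DESeq2 called Fpr1 (1.08), Fpr2 (1.30) and Ptafr (1.36) in neutrophils, where it gave 441 genes that rose and 106 that fell, and 1185 that fell in monocytes. C5ar1 in neutrophils no longer passed in limma-trend on unfiltered log2(FPKM + 1) (1.26, 8 genes that rose; 883 rose and 322 fell in monocytes). With a filter at a mean of 1 FPKM, limma-trend gave 49 that rose and 1 that fell in neutrophils, and 1 that fell with a pseudocount of 0.1, where C3ar1 was left out by the filter. Upper quartile scaling gave 1030 that fell in monocytes. Not every pair of same-numbered libraries deviated together (r of their deviations of 0.248, 0.000146 and 0.234 in neutrophils, 0.167, -0.0558 and 0.222 in monocytes), so the numbers were not taken as pairs; with the replicate block, C5ar1 in neutrophils had 1.37 (edgeR adjusted p = 0.0597), 4 genes rose and 1 fell, and 1043 fell in monocytes. With the block the calls of Saa3, Ccr1 and Hcar2 in neutrophils were also lost, and in monocytes 7 complement genes fell and 1 of 4 receptor relatives fell.

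Leaving out 1 library at a time, log2 fold changes in neutrophils were 0.85 to 1.29 for Fpr1, 1.10 to 1.52 for Fpr2, 1.28 to 1.45 for C5ar1, 0.57 to 1.26 for C3ar1 and 0.96 to 1.54 for Ptafr, with 0 to 257 genes that rose and 0 to 31 that fell. Without any 1 library other than control replicate 1, edgeR called 0 genes, with 944 to 2662 at an unadjusted p under 0.05. In monocytes the log2 fold changes were 0.17 to 0.42 for Fpr1, 1.17 to 1.43 for Fpr2 and 0.73 to 0.99 for C5ar1, with 706 to 1687 genes that rose and 177 to 1168 that fell. The log2 ratio of Fpr2 to Fpr1 in monocytes stayed between 0.98 and 1.04. Why these values changed was not tested. With mean log2 levels in place of the sum of neutrophil markers, the log2 ratios of the receptors were -0.09 to 0.36 in neutrophils and -1.98 to -0.31 in monocytes, beside -0.02 to 0.42 and -1.95 to -0.28 with the sum.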
